A study of Rattus norvegicus with 16 samples.

Results

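The transcripts of stressed and control female rats from the nucleus basalis of Meynert, part of the basal forebrain, were compared with 8 of the 16 RNA-seq libraries of the series, 4 from stressed females and 4 from control females. The libraries were chosen by their labelled sex and group. All 16 came from the brain of Long Evans rats of the ChAT::Cre genotype, in which Cre recombinase is made in cells that express choline acetyltransferase, and the labelled age was 70 days or more. The stress and control groups therefore shared the labels of strain, genotype, sex and age, the last without an upper bound, and differed in the label Stress or Control. The labels do not say what the stress was or how often it was given, nor that the libraries came from separate animals, so the spread behind each p-value is that between libraries and may be technical. The other 8 libraries, 4 from stressed and 4 from control males, entered the same fit and give the effect of stress in males.

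The nucleus basalis holds large cholinergic neurons whose axons supply the cerebral cortex with acetylcholine and take part in arousal and attention. Stress releases adrenal glucocorticoids, whose receptors are transcription factors, and it activates neurons, which switch on early response genes within a short time. A sample of the whole nucleus mixes these neurons with other neurons, glia and vessel cells, so that fewer cells of a type and less RNA per cell cannot be told apart.

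The counts are listed by Ensembl gene identifier without names, and 0 of the identifiers matched the table of 47357 RefSeq genes at hand. Genes are therefore given by chromosome, position in Rnor_6.0 and number of annotated exons, which are the distinct exons listed for the gene over all its transcripts. No gene is described by its function, no early response or glucocorticoid gene list was counted, the tissue label was not checked against marker genes, and no promoter was printed. The labelled sex was checked by the genes of chromosome Y, which held 8.28 to 11.4 CPM (counts per M counts, where M is mega, here of nuclear counts) in females and 281 to 326 CPM in males.

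Library size differed between the female libraries, most of all in 1 control. Counts assigned to nuclear genes were 7.76 to 8.97 M in the stress libraries, 5.96 to 7.49 M in controls 1 to 3 and 22.6 M in control 4, the one female library counted with featureCounts, which counted each mate of a read pair on its own. Mitochondrial genes took 64.2% to 80.3% of the counts, and the stress and control means differed by 0.811 percentage points (two-sided exact permutation test, p = 0.857, smallest possible 0.0286), with the sign turned without control 4 (-2.33) or stress 2 (-0.335). Read entries outside genes made up 19.8% ± 7.66 (SD, n = 4) of all entries in the stress libraries and 15.3% ± 4.46 (SD, n = 3) in controls 1 to 3, a difference of 4.46 points (two-sided exact permutation test, p = 0.571, smallest possible 0.0571). Stress 4 held the highest share, 31.2%, and the difference was 0.662 points without it and 1.90 points without control 2. Control 2 also had the fewest nuclear counts, 5.96 M. Entries not aligned made up 40.8% in control 2, against 13.2% to 15.4% in controls 1 and 3 and the stress libraries. Elsewhere CPM are of all counts, mitochondrial ones included, scaled by the trimmed mean of M values (TMM). Only the number of genes of at least 1 CPM per library and the alternative filter by mean CPM use CPM without that scaling. Of the 4593 genes whose mean reached 10 CPM, 6.29% in stress 4 and 8.80% in control 4 lay over 1.5-fold from the median of the other libraries of their group, against 1.28% to 4.05% in the other 6 libraries. Results are given also without control 4, and without stress 4 where a call changed.

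**Figure D1:**
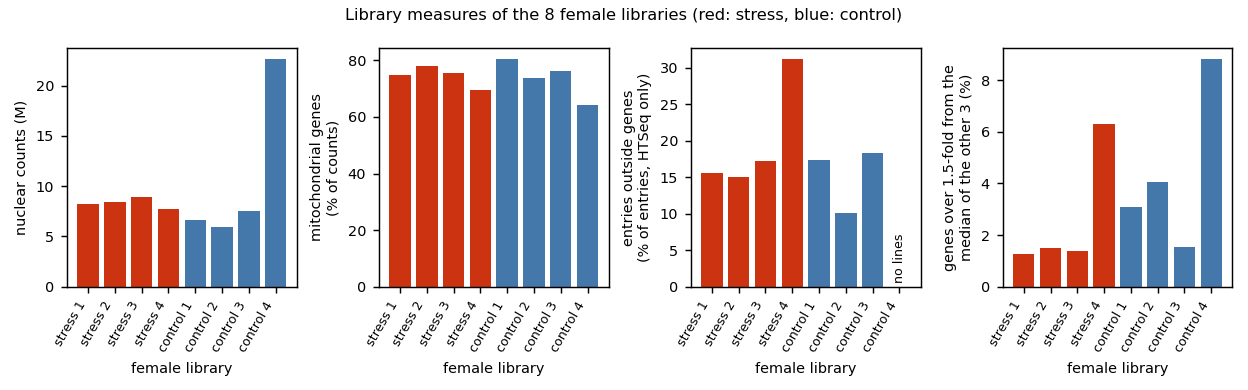
Each panel plots 1 measure for each of the 8 female libraries (red bars, stress; blue bars, control), from left to right nuclear counts in M, the mitochondrial share of counts in percent, entries outside genes in percent, and the percentage of genes over 1.5-fold from the median of the other libraries of the group. Control 4 stands at 22.6 M nuclear counts, and stress 4 has the highest share of entries outside genes, 31.2%.

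A small number of transcripts were higher in the stressed females, and edgeR called none lower over all libraries once genes of low counts were filtered out. Of 14241 genes tested, 9 were higher in the stress libraries and 0 were lower at an adjusted p under 0.05 (edgeR's quasi-likelihood test with Benjamini-Hochberg adjustment over all genes tested), which is 0.0632% of the genes. At an unadjusted p under 0.05, 923 genes or 6.48% passed, 475 higher and 448 lower. DESeq2 called 22 genes higher and 5 lower, and limma voom called 10 higher and 0 lower. Both lists held all 9 genes. Without control 4, 12 genes were higher and 1 was lower among 14475 tested, or 0.0898%, and these 13 included the 9. Without stress 4, 10 were higher and 0 lower, 8 of them among the 9. The median log2 fold change of all genes tested was 0.006. Without the filter for low counts, edgeR over all libraries called 51 higher and 54 lower of 25215 genes, with the 9 among them.

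**Figure D2:**
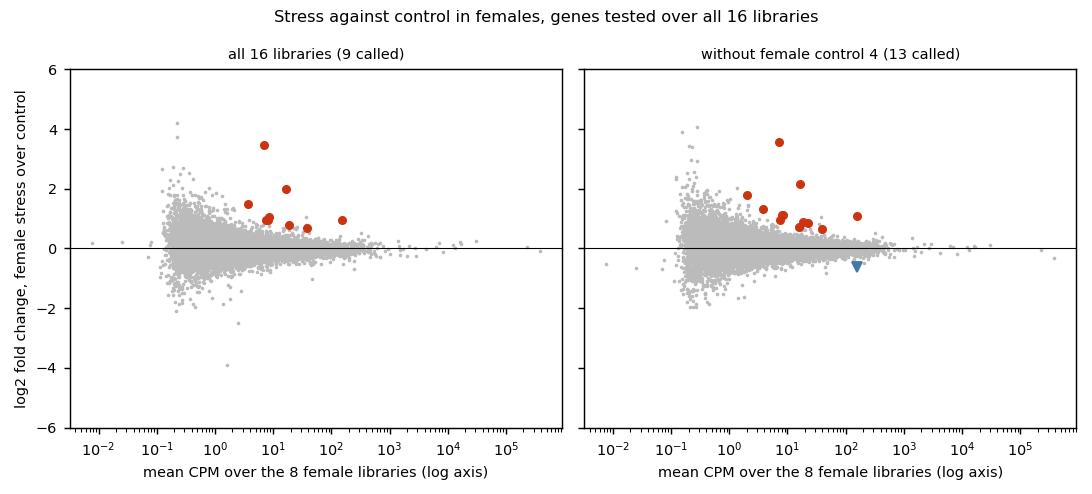
Each point is a gene, with its mean CPM over the 8 female libraries on a log axis and its log2 fold change, stress over control, on the vertical axis, from all 16 libraries (left) and without control 4 (right). Red circles are genes called higher, 9 on the left and 12 on the right, and the blue triangle is the 1 gene called lower, on the right.

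The transcript with the smallest adjusted p in this fit was ENSRNOG00000003977, a gene of 4 exons on the forward strand of chromosome 10, from 16970626 to 16973418. Its level was 26.2, 28.9, 26.1 and 24.9 CPM in stress libraries 1 to 4 and 5.88, 7.68, 4.40 and 8.33 CPM in control libraries 1 to 4. The stress values lay close together, and the lowest of them was 3.00 times the highest control. Group means were 26.5 ± 1.68 and 6.57 ± 1.78 CPM (SD, n = 4 each). The fold change was 4.00, or 2.00 on the log2 scale (SE 0.15, adjusted p = 1.42e-08), and the log2 value was 2.15 without control 4 (adjusted p = 5.67e-09).

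ENSRNOG00000007830 had the largest fold of the 9 genes. It lies on the forward strand of chromosome 4, from 168752133 to 168755023, as 1 exon without an intron. Counts per library were 553, 394, 437 and 404 in stress 1 to 4 and 44, 23, 23 and 118 in control 1 to 4, which is 16.5, 11.3, 12.0 and 12.2 CPM against 1.6, 0.955, 0.734 and 1.33 CPM. Stress 1 was the highest, and the lowest stress library was 7.10 times the highest control. The fold change was 11.0, or 3.47 on the log2 scale (SE 0.27, adjusted p = 5.68e-08), and the log2 value was 3.57 without control 4 (adjusted p = 3.43e-06). Both of these genes, unlike those that follow, kept an adjusted p of at most 3.43e-06 with any 1 female library left out.

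Another 4 genes were called with every female library left out in turn. One lies on the reverse strand of chromosome 20, from 10668411 to 10680283, with 14 exons. It stood at 5.55, 5.30, 5.27 and 5.83 CPM in the stress libraries and at 2.18, 1.83, 2.58 and 1.43 CPM in the controls. No stress value came within 2.04-fold of the highest control, and control 4 was the lowest control. The log2 fold change was 1.47 (SE 0.19, adjusted p = 0.00015) and fell to 1.31 without control 4 (adjusted p = 0.000673).

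A gene of 4 exons on the forward strand of chromosome 13, from 104284660 to 104321455, stood at 11.4, 10.2, 12.8 and 11.9 CPM under stress and at 6.17, 5.52, 4.18 and 6.33 CPM in the controls. Its lowest stress library was 1.61 times its highest control. The log2 fold change was 1.05 (SE 0.15, adjusted p = 0.000809), and 1.13 without control 4 (adjusted p = 0.000673). A gene of 2 exons on the forward strand of chromosome 1, from 85380088 to 85382569, gave 9.67, 11.6, 8.32 and 9.51 CPM under stress against 4.97, 5.48, 4.63 and 5.10 CPM. Its controls were close to each other and its stress libraries more spread, with no overlap. On the log2 scale the difference was 0.96 (SE 0.14, adjusted p = 0.00137) with and without control 4 (adjusted p = 0.00474 without it). The gene of 8 exons on the forward strand of chromosome 2, from 8732932 to 8743069, gave 25.4, 24.3, 20.3 and 25.5 CPM against 14.2, 11.5, 12.6 and 16.5 CPM. Stress 3 was its lowest stress library and control 4 its highest control, and they stood 1.22-fold apart. The log2 difference was 0.79 (SE 0.13, adjusted p = 0.00313), and 0.90 without control 4 (adjusted p = 0.000673).

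The last 3 of the 9 genes lost their call with some single libraries left out, with log2 fold changes that stayed between 0.58 and 0.97 in those fits. The gene of 6 exons on the reverse strand of chromosome 6, from 76267228 to 76270457, gave 9.91, 12.6, 10.9 and 9.36 CPM under stress and 4.32, 6.36, 4.24 and 7.15 CPM in the controls. The groups did not overlap, and the log2 fold change of 0.94 (SE 0.16, adjusted p = 0.00548) lost its call only without stress 2, the highest library (0.85, adjusted p = 0.0571). It was 1.11 without control 4 (adjusted p = 0.000673).

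The gene of 8 exons on the forward strand of the same chromosome, from 104611026 to 104615302, gave 44.8, 47.3, 46.9 and 51.3 CPM under stress and 34.3, 23.5, 32.1 and 28.8 CPM in the controls. The lowest stress library was 1.30 times the highest control. Their difference was 0.68 on the log2 scale (SE 0.12, adjusted p = 0.0141), and 0.66 without control 4 (adjusted p = 0.0423). Without stress 2, 3 or 4 it was 0.64 to 0.68, nearly the same size, with adjusted p of 0.0504 to 0.0571, and without control 2 it was 0.58 (adjusted p = 0.134).

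The gene of 18 exons on the reverse strand of chromosome 1, from 24185435 to 24302298, was the one gene of the 9 whose groups overlapped. Its stress libraries 1 to 3 stood at 214, 250 and 230 CPM and stress 4 at 126 CPM, and the controls stood at 99.1, 111, 79.6 and 134 CPM. Stress 4, the library with the highest share of entries outside genes, lay below control 4 and above controls 1 to 3. The difference in log2 units was 0.95 (SE 0.17, adjusted p = 0.0239), 1.09 without control 4 (adjusted p = 0.00791) and 1.12 without stress 4 (adjusted p = 5.18e-05). With any 1 of stress 1 to 3 or control 1 to 3 left out it was 0.84 to 0.97, and the call was lost at an adjusted p of 0.0961 to 0.162. Whether the composition of stress 4 bears on its low value was not tested.

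**Figure D3:**
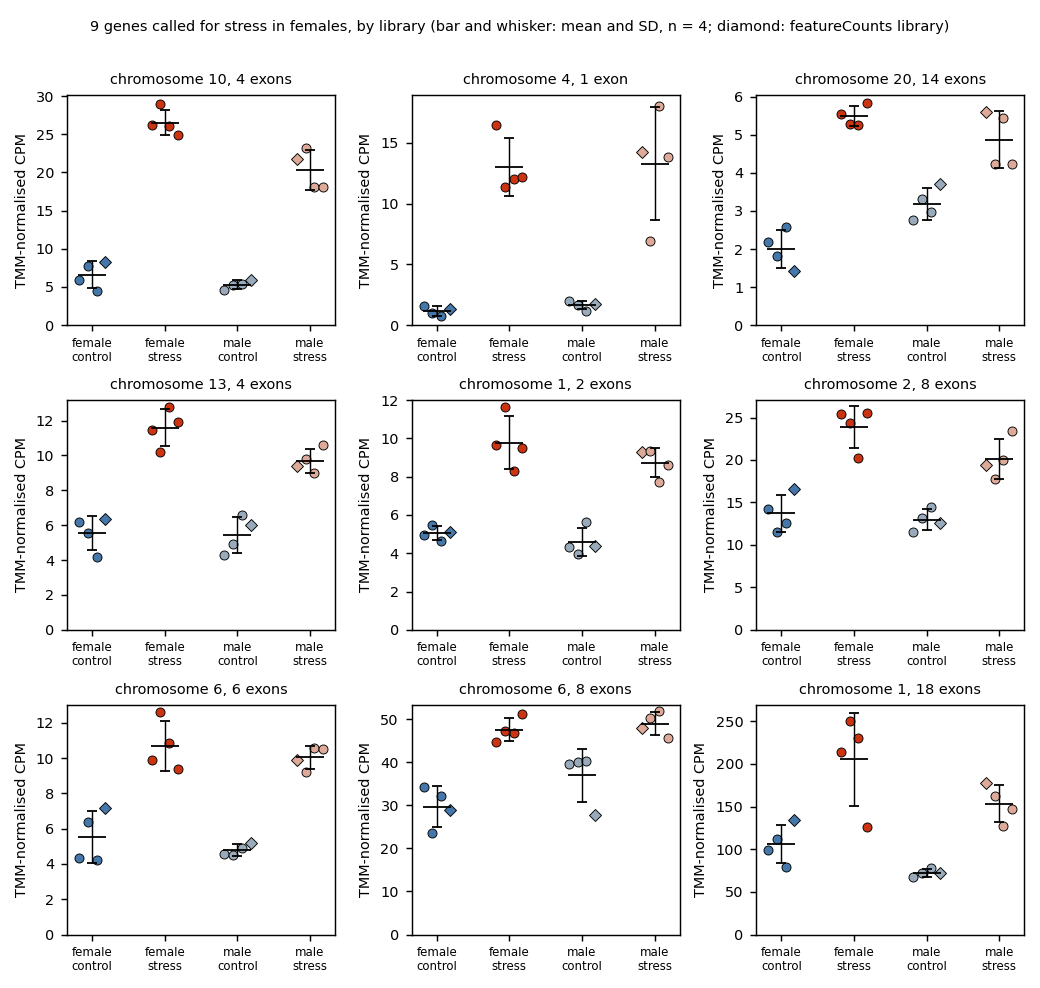
Each panel plots 1 of the 9 genes called in the females, as CPM per library from 0, in the 4 groups of 4 libraries; horizontal bars and whiskers give the mean and SD, and diamonds mark libraries counted with featureCounts. Stress 4 of the gene of 18 exons on chromosome 1, at 126 CPM, is the single female stress value that falls among the controls of its gene.

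In 8 of the 9 genes every stress library lay above every control library, and in 9 of 9 above controls 1 to 3. Over all genes tested, 245 or 1.72% were separated in this way upward and 227 or 1.59% downward. Against controls 1 to 3 alone the numbers were 476 or 3.34% upward and 390 or 2.74% downward. The separation of the 9 genes is no independent support, since they were called on the same libraries. Control 4 was the highest control for 5 of the 9 genes and the lowest for 1, where it was the highest control for 30.6% of the 11072 genes whose mean over the female libraries reached 1 CPM.

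Per kilobase of exon, the 18-exon gene of chromosome 1 had the highest mean level of the 9 genes, with 56.1 CPM per kb under stress and 29.0 in the controls. Next came the 8-exon gene of chromosome 6, with 40.3 and 25.2 CPM per kb. The lowest was the 14-exon gene of chromosome 20, with 1.10 and 0.402 CPM per kb. ENSRNOG00000007830 stood at 4.5 and 0.4 CPM per kb, so its controls lay at the level of those of the chromosome 20 gene. The 9 genes lay on 7 chromosomes, 5 of them spanned under 5 kb, as did 2516 of the 14241 genes tested, and 0 of them overlapped another annotated gene, as 22.7% of the tested genes did.

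Large folds were few among the genes whose mean reached 1 CPM, and most of them carried no call. Among those 11072 genes, 23 were at least 2-fold higher and 8 at least 2-fold lower under stress, and 27 and 4 without control 4. In 7 of these 11072 genes the lowest stress library was at least 1.5 times the highest control, 5 of them called. The reverse held for 1 gene, ENSRNOG00000046790, of 2 exons on chromosome X from 113002150 to 113018073, which was singled out after its values were seen. It gave 0.627, 1.04, 0.357 and 0.423 CPM under stress and 1.92, 1.95, 1.98 and 2.87 CPM in the controls. Its log2 fold change was -1.85 (SE 0.45, adjusted p = 0.229), and -1.67 without control 4, its highest library (adjusted p = 0.612). It was called by DESeq2 (adjusted p = 0.0142) and by edgeR without the 3 featureCounts libraries (adjusted p = 0.0459).

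The only decrease called without control 4 was that of ENSRNOG00000009054, a gene of 12 exons on the reverse strand of chromosome 8, from 58486078 to 58542844. Its level was 130, 126, 123 and 135 CPM under stress and 186, 214, 193 and 154 CPM in the controls. The 4 stress values were nearly alike and all lay below control 4, which was the lowest control. Over all libraries the log2 fold change was -0.53 (SE 0.11, adjusted p = 0.07), short of the threshold. Without control 4 it was -0.62 (adjusted p = 0.0101). With any 1 of the other 7 female libraries left out, edgeR did not make the call, while DESeq2 made it with all libraries (adjusted p = 0.00333).

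The other 3 genes that joined without control 4 were higher under stress. With all libraries kept, DESeq2 called all 3 (adjusted p of 0.00386 to 0.0182). EdgeR with the counting tool as a covariate also called all 3 (adjusted p of 0.00708 to 0.0254). The gene of 4 exons on chromosome 5, from 167952728 to 167966009, gave 28.4, 28.5, 31.3 and 23.9 CPM under stress and 16.1, 16.9, 13.8 and 22.6 CPM in the controls. Stress 4 and control 4 nearly met, and the log2 fold change moved from 0.68 (adjusted p = 0.111) to 0.85 (adjusted p = 0.00805). The gene of 2 exons on chromosome 13, from 50913180 to 50916982, gave 3.49, 3.11, 2.36 and 2.78 CPM against 1.02, 0.872, 0.670 and 1.79 CPM. Control 4 again stood above the other controls, and the log2 fold change moved from 1.37 (adjusted p = 0.147) to 1.78 (adjusted p = 0.0164). The gene of 14 exons on chromosome 16, from 74098260 to 74122889, gave 19.1, 18.2, 19.2 and 20.2 CPM against 11.9, 9.93, 13.3 and 13.2 CPM. Its control 4 lay within the other controls, and its log2 fold change was 0.66 with all libraries (adjusted p = 0.0548) and 0.71 without control 4 (adjusted p = 0.0459). With all libraries, edgeR also called this gene with a minimum mean of 1 CPM (adjusted p = 0.0405) and with halved featureCounts counts (adjusted p = 0.0490).

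**Figure D4:**
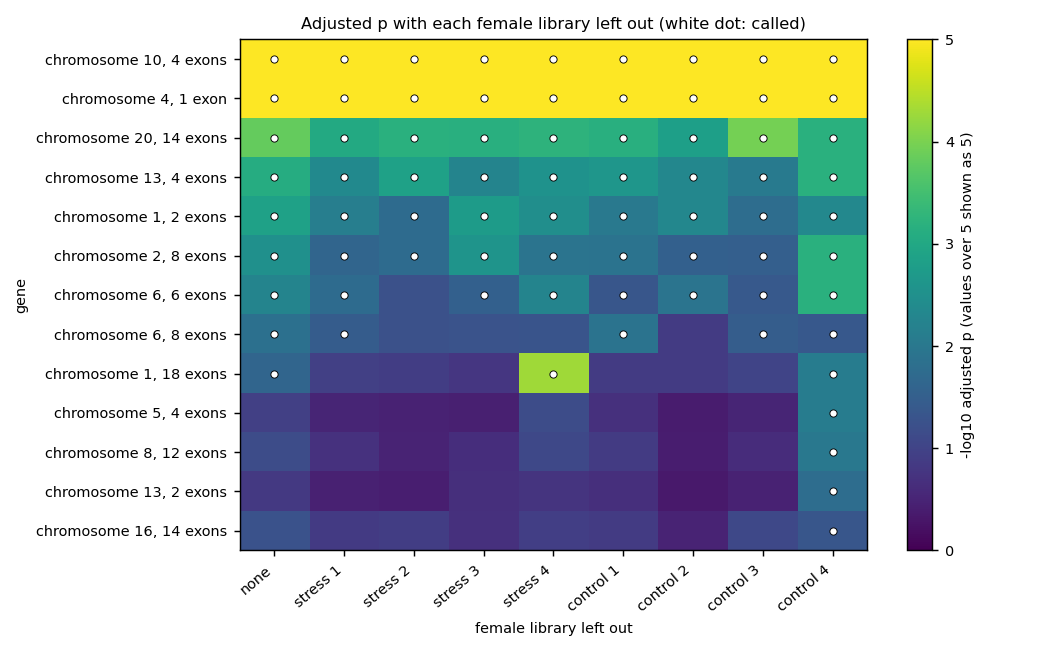
Rows are the 13 genes called with all libraries or without control 4, columns the female library left out, and colour gives −log10 of the adjusted p, with values over 5 shown as 5; white dots mark calls. The top 6 rows carry a dot in every column, and the bottom 4 rows carry one in the last column alone.

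The 7 genes next in order of unadjusted p were all higher in every stress library than in every control, as were 1.72% of all genes tested, but they were taken for their small p on the same libraries. By the rule that chose them, none was called by edgeR's filtered fit of the 4 group means alone, with all libraries or without control 4. Without a filter for low counts, edgeR called all of them with all libraries except the 1-exon gene of chromosome 16 (adjusted p = 0.0912). DESeq2 called all 7, with adjusted p of 0.00314 to 0.0269. The gene of 6 exons on chromosome 2, from 118721334 to 118745766, stood at 2.24, 1.81, 2.33 and 2.05 CPM against 0.690, 0.789, 1.34 and 0.814 CPM, 1.22 higher on the log2 scale (SE 0.25, adjusted p = 0.0664). The gene of 2 exons on chromosome 1, from 242572533 to 242577817, stood at 1.82, 2.82, 2.42 and 1.69 CPM against 0.545, 0.665, 1.18 and 0.690 CPM, 1.5 higher on the log2 scale (SE 0.31, adjusted p = 0.0671). In both, control 3 was the highest control, and edgeR called both without it (adjusted p = 0.0248 and 0.0334). The gene of chromosome 2 was also called by limma voom (adjusted p = 0.0473). That of chromosome 1 was called by edgeR with the counting tool as a covariate (adjusted p = 0.0474). The gene of 14 exons on chromosome 4, from 146106386 to 146223228, stood at 32.0, 35.5, 28.8 and 22.0 CPM against 21.3, 17.8, 17.9 and 18.7 CPM, with stress 4 close to control 1. Over all libraries it was 0.65 higher in log2 units (adjusted p = 0.123), and it was called without stress 4, at 0.76 (adjusted p = 0.0117). The other 4 had adjusted p of 0.147 to 0.163. The gene of 2 exons on chromosome 2, from 199162745 to 199184939, rests on 16, 21, 10 and 11 counts in the stress libraries and 1, 2, 0 and 0 in the controls, so its fold is poorly known.

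Of the 15 mitochondrial genes of 200 bases or more, 0 were called, 0 had an unadjusted p under 0.05, and their median log2 fold change was 0.057. That median was 0.019 without control 4 and 0.157 without stress 4.

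In the males the same 9 genes all had a positive log2 fold change, from 0.41 to 3.02, as had 50.5% of all genes tested, and 7 of them were called, where 16 genes or 0.112% were called higher in the males. The male and female libraries share no controls, but all 16 share 1 estimate of the spread. ENSRNOG00000003977 stood at 21.7, 23.2, 18.1 and 18.0 CPM in stressed males and at 4.60, 5.28, 5.36 and 5.96 CPM in control males. That is the same order of separation as in the females, with a log2 fold change of 1.93, and the difference between the sexes, females minus males, was 0.07 (95% interval -0.37 to 0.51), and 0.22 without female control 4 (SE 0.21). ENSRNOG00000007830 stood at 14.2, 6.89, 18.1 and 13.9 CPM in stressed males and at 1.95, 1.68, 1.15 and 1.76 CPM in control males. Its stressed males were more spread than its stressed females, and its log2 fold change was 3.02, with a difference of 0.44 (95% interval -0.30 to 1.19).

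The test of that difference called 0 of 14241 genes (0%) with edgeR's quasi-likelihood test, against 571 at an unadjusted p under 0.05, 1 gene by DESeq2 and 0 by limma voom. For each of the 9 genes the adjusted p of the difference rounded to 1.00. The widest difference among the 9, which were chosen for their change in the females, was that of the 14-exon gene of chromosome 20. It stood at 5.60, 4.23, 5.45 and 4.23 CPM in stressed males and at 2.77, 3.31, 2.96 and 3.70 CPM in control males, so its male groups also did not overlap, but its male log2 fold change was 0.62 (adjusted p = 0.337). Its difference was 0.86 (SE 0.26, 95% interval 0.32 to 1.39, unadjusted p = 0.00284), and 0.69 without female control 4 (unadjusted p = 0.0101). ENSRNOG00000009054, the gene lower in the females without control 4, had a male log2 fold change of -0.04 and a difference of -0.50 (95% interval -0.82 to -0.17, unadjusted p = 0.00416, adjusted p = 1.00), or -0.58 without control 4 (adjusted p = 0.568). The 2-exon gene of chromosome 13 that joined without control 4 leaned the other way, with 2.30 in the males and a difference of -0.93 (95% interval -1.86 to 0.00), which was -0.51 without female control 4 (SE 0.44).

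**Figure D5:**
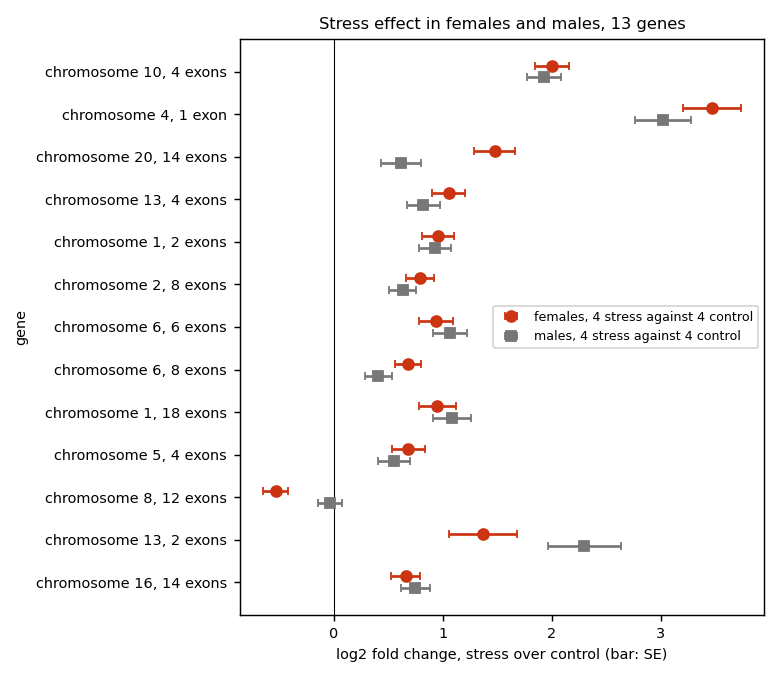
The log2 fold change of stress over control, with its SE as a bar, is plotted for 13 genes in females (red circles) and males (grey squares). The 14-exon gene of chromosome 20 stands at 1.47 in females and 0.62 in males, and the 12-exon gene of chromosome 8 at -0.53 and -0.04.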

How the data were processed

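The library kit was NuGen Ovation RNA-Seq System v2, used on total RNA, per the labels' protocols. The submitters' processing notes name STAR 2.5.2a, HTSeq, bedtools, DESeq and limma with the build Rnor_6.0. The authors deposited raw counts per gene for 32883 Ensembl genes. Per the file headers, featureCounts 1.6.1 and Ensembl release 92 were used for 3 of the 16 libraries (female control 4 and, among the males, stress 1 and control 4), each mate counted on its own and without strand. The other files have the layout of HTSeq output, and their closing lines, which name no gene and held 44.8% to 62.5% of the entries of the 7 female HTSeq libraries, stayed out of library sizes and tests.

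Counts of all 16 libraries were fitted with edgeR 4.0.16 (quasi-likelihood, robust, filterByExpr, TMM) in R 4.3.3 with 4 group means, and stress was compared with control in the females. SE is the log2 fold change divided by the root of F. p-values were adjusted by Benjamini-Hochberg over all genes tested and called under 0.05. DESeq2 1.42.0 and limma 3.58.1 (voom) were alternatives, beside other scalings and filters, left-out libraries, the counting tool as a covariate and halved featureCounts counts, the last added after the data were seen. The fit was tested on simulated data. No 2 female libraries of the same group held identical counts. The chi-square of each such pair, averaged over genes, was 7.7 or more, above sampling noise. Abundant mitochondrial genes can weigh heavily in that mean, so it does not show how far the other genes differed. Library measures were compared by exact permutation with SciPy 1.17.1.

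Named genes are all those called with all libraries or without female control 4, then those of smallest p up to 20. The comparison, the gene lists and the rule were chosen with earlier results of these data known. The lists and markers could not be matched to identifiers. Identifiers are printed for at most 2 genes per direction, and the numbers of the female stress titles and of their counts differ, which moves no library between groups.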

Additional observations from a re-analysis of the deposited data

Results flagged for a closer look

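In 50 sets of 4 library values screened for a value standing far from the other 3 (a gap above Dixon's critical share of the whole range), 3 were found, where chance gives about 1 in 20. Nuclear counts were 22.6 M in female control 4 and 5.96 to 7.49 M in the other controls. Control 4 was counted with featureCounts, each mate on its own, and the other controls with HTSeq. These counts are therefore not like for like, and the screen was not repeated with those of control 4 halved. Entries outside genes made up 31.2% in female stress 4 and 15.0% to 17.3% in the other stress libraries. ENSRNOG00000007830 stood at 16.5 CPM in female stress 1 and at 11.3 to 12.2 CPM in the other stress libraries, all far above its highest control.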

How the results depend on the processing

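All 9 genes were called by DESeq2 and limma voom, with relative log expression scaling, without mitochondrial genes, without a filter, with a minimum mean of 1 CPM, without the 3 featureCounts libraries, with the counting tool as a covariate, and with halved featureCounts counts. The 8 female libraries alone gave 6. The number of called genes, 9 with 0 lower, became 27 (22 higher, 5 lower) by DESeq2, 105 (51 and 54) without a filter, and 14 (2 lower) without the 3 featureCounts libraries. Leaving out 1 female library gave 6 to 13 genes, 6 to 12 higher and 0 to 1 lower, the lower gene being that of chromosome 8 without control 4 and one of 4 exons on chromosome 4, from 45555077 to 45560943, without control 3. For the difference between sexes, DESeq2 called 1 gene, of 11 exons on chromosome 1 from 187759480 to 187766709, and the unfiltered fit 36. Over the settings the 9 genes kept their direction in 162 of 162 values and their call in 148. Among library measures, with 1 library left out the mitochondrial difference ran from -2.33 (without control 4) to 3.02 points, and was -0.335 without stress 2. That of nuclear counts, -2.31 M, ran from -3.88 to 1.67 M (without control 4). Without control 4, every stress library held more nuclear counts than every control (two-sided exact permutation test, p = 0.0571, the smallest possible). The difference in genes of at least 1 CPM, 122.8, ran from -146.4 (without stress 4) to 285.6, with -19.2 without control 1. The causes were not tested. No paired analysis was possible because the replicate numbers only follow the order of deposit. The lowest gene named rests on 0 to 2 counts in its controls.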

Other observations

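Genes that span 50 to 500 kb leaned upward under stress in the females. Of 3768 tested, 144 (3.82%) were higher and 52 (1.38%) lower at an unadjusted p under 0.05. All 14241 genes gave 475 (3.34%) and 448 (3.15%), so the lean lay mostly in fewer lower genes. Without control 4 the counts were 152 and 53, beside 436 and 336 over those of the 14241 genes that this fit also tested. Without stress 4 they were 126 and 57, beside 450 and 383 counted in the same way. Genes of 10 or more exons gave 257 higher (3.57%) and 133 lower (1.85%) of 7205. Their higher share was near that of all genes, and only their lower share was clearly smaller. The counts were 230 and 114 without control 4, and 218 and 158 without stress 4. The median log2 fold change of these genes was 0.026 with all libraries and -0.001 without stress 4. The median log2 fold change of the genes of 50 to 500 kb was small, 0.04 with all libraries and 0.01 without stress 4. Genes of 5 to 9 exons leaned the other way, with 90 higher and 170 lower of 3793, and this lean was smaller without control 4 (101 and 125) and without stress 4 (113 and 126). The size classes were chosen after the data were seen, genes are not independent replicates, and no test of the classes was made.

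Other genes were singled out after their values were seen. A gene of 16 exons on chromosome 8, from 130009573 to 130106382, stood at 76.6 and 77.5 CPM in stress 1 and 3, at 22.0 and 26.2 CPM in stress 2 and 4, and at 32.5, 19.1, 20.6 and 24.1 CPM in the controls (log2 fold change 1.07, adjusted p = 0.736). A gene of 13 exons on chromosome 9, from 65296778 to 65307995, stood at 26.2, 23.6, 27.3 and 43.6 CPM in the stress libraries and at 51.2, 48.1, 58.7 and 89.4 CPM in the controls (log2 fold change -1.04, adjusted p = 0.345). In it stress 4 and control 4 were the highest libraries of their groups. The other genes that DESeq2 called lower over all libraries, beside that of chromosome X named above and that of chromosome 8 from 58486078 to 58542844, were a gene of 2 exons from 124921728 to 124926171 and one of 5 exons from 105617385 to 105622156, both on chromosome X, and the 4-exon gene of chromosome 4 from 45555077 to 45560943, with adjusted p of 0.0281 to 0.0392 by DESeq2 and 0.163 to 0.171 by edgeR's quasi-likelihood test.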
